A study of Schizosaccharomyces pombe with 4 samples.

Results

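The ends of fission yeast chromosomes I and II carry genes that lie next to the telomeres, and their transcripts were compared between a wild-type strain and delta4dus. The genes were chosen by position: a table row on chromosome I or II had to lie wholly within the first 50000 bases or within 50000 bases of the largest gene end on that chromosome, and every gene on the unplaced contig AB325691 was added. Non-coding RNA rows and SPBC1348.14c were left out. Of 7049 rows in the count table, 85 met the rule: 26 at the left end of chromosome I, 16 at its right end, 16 at the left end of chromosome II, 22 at its right end and 5 on the contig. As 9 of them are second rows of a pseudogene with the same counts, the 85 rows stand for 76 loci. The RefSeq annotation lists 62 of these as protein-coding and 9 as pseudogenes, and the 5 contig genes have no match in it, so the genes are not all coding.

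Both groups were Schizosaccharomyces pombe grown in the rich medium YES at 32 °C to an optical density of about 0.5, with RNA sequenced after ribosomal RNA depletion. There were 2 wild-type libraries and 2 libraries of delta4dus, in which dus1, dus2, dus3 and dus4 are all deleted. These genes encode the dihydrouridine synthases, which modify uridines of transfer RNA. The labels do not say whether the replicates came from separate cultures or whether the deletion strain is 1 clone, so the tests measure only the spread between these libraries, which may be technical. Each level below is a normalised count, the read count divided by the relative effective library size. All 4 deleted genes were lower in both delta4dus libraries. For dus1 the normalised counts were 2211 and 2334 in wild-type against 133 and 183 in delta4dus. For dus4 they were 532 and 562 in wild-type against 309 and 153 in delta4dus, the smallest difference of the 4. Library totals ran from 264948323 to 495098038 counts, of which 84.7% to 90.7% fell on ribosomal RNA genes.

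Subtelomeres of S. pombe are packed in heterochromatin. The methyltransferase Clr4 marks histone H3 at lysine 9, Swi6 binds the mark, and telomere proteins such as Taz1, together with RNA interference, bring the machinery to the ends. Genes there are held at low transcript levels in growing cells. The outermost genes, tlh1 and tlh2, encode RecQ-type helicases and serve as reporters of this silencing. The ends of chromosomes I and II also carry long stretches of shared sequence, so that many genes exist as near-identical copies at several ends.

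The copies decide how the values can be read, and the coding sequences of the genes with the clearest differences are shown for that reason. At least 90% coding identity over at least 90% of the longer sequence placed 43 of the 76 loci in 17 copy groups, 15 of which had copies at more than 1 of the 4 ends. The first set holds ftm1, ftm4, ftm5 and SPBPB2B2.19c, annotated as transmembrane helix domain proteins. The coding sequences of ftm5 and SPBPB2B2.19c are identical over 1035 bases. Capitals mark bases of ftm4, ftm5 and SPBPB2B2.19c that precede the point where the annotated coding sequence of ftm1, 953 bases long, begins. Whether the same bases lie upstream of ftm1 was not examined. The stretches come from the coding sequence in RefSeq build ASM294v3, at chrI:29764-29808 on the plus strand, chrI:5567114-5567203 on the minus strand, chrII:8017-8106 on the plus strand and chrII:4504818-4504907 on the minus strand.
ftm1: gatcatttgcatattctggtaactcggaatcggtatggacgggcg
ftm4: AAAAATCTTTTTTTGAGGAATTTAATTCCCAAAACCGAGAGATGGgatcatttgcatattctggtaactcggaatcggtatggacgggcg
ftm5: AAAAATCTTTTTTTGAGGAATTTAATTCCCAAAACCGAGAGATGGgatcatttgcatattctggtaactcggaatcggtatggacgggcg
SPBPB2B2.19c: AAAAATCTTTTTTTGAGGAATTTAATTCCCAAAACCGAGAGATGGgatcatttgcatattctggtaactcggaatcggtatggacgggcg

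A second set is a group of 5 uncharacterised genes, shown because a repeat within the coding sequence separates them. Capitals mark 33 bases that are present in 3 of the 5 copies and absent from SPBC1348.01 and SPBCPT2R1.01c, and the last base, which also differs. SPBC1348.01 and SPBCPT2R1.01c are identical over 810 bases, and the other 3 copies are 843 bases long. The stretches lie at chrI:29305-29394 on the plus strand, chrI:5569147-5569236 on the minus strand, chrII:6018-6074 on the plus strand, chrII:4513945-4514034 on the minus strand and chrII:4506850-4506906 on the minus strand.
SPAC212.01c: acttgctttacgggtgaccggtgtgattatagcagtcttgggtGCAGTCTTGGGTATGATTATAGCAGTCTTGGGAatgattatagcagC
SPAC750.06c: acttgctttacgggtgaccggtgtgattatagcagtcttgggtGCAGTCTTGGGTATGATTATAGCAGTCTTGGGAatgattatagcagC
SPBC1348.01: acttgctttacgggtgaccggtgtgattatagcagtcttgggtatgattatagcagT
SPBCPT2R1.04c: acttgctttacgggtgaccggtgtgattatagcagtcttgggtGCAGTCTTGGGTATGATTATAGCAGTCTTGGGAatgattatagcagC
SPBCPT2R1.01c: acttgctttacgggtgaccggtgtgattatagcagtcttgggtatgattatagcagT

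The last set, 3 genes annotated with a Vel1p domain, is shown because its values lay on the other side of 0. Capitals mark bases that are not the same in all 3 copies. The stretches lie at chrI:36293-36382 on the minus strand, chrII:16506-16592 on the minus strand and chrII:4496373-4496459 on the plus strand.
SPAC977.05c: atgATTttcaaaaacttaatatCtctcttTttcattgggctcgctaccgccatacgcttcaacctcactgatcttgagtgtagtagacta
SPBC1348.06c: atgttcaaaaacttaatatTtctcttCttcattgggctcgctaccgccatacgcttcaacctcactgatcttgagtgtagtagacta
SPBPB2B2.15: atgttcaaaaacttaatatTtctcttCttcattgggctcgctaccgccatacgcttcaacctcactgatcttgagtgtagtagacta

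Reads from such copies cannot be told apart over most of their length. Of the 80 rows on chromosomes I and II, 62 had at least 50% of their 50-base stretches at another place in the reference genome, 26 had all of them and 17 had none. Joining loci that share at least 50% of the 50-base stretches of the shorter one left 42 read families for the 76 loci: 25 of a single locus and 17 holding 51 loci. The largest family had 6 loci. Some identical or nearly identical copies had equal or nearly equal counts. SPAC212.03, SPBC1348.15 and SPBCPT2R1.03 each held 14 raw reads in delta4dus replicate 1 and 7 in delta4dus replicate 2. The genes plb4 and SPBC1348.10c, phospholipase genes whose coding sequences are identical over 2022 bases, held 3980 and 3947 raw reads in wild-type replicate 1. Others did not: ftm2 and ftm3, identical over their 441 coding bases but counted over 979 and 441 bases, held 48 and 31. Loci of one family are therefore not independent measurements of the genotypes, and a difference cannot be placed at one end. Opposite-strand overlap with another table row affected 9 loci.

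Most subtelomeric genes had few reads. The median level was 55.9 normalised reads per kilobase of transcript over the 85 rows, against 1105 over the 5042 other coding genes of the table. Of the 85, 53 were under 100 reads per kilobase (62.4%), compared with 4.13% of the other coding genes. Unlike that set, the 85 include pseudogenes and their second rows. With 1 row per locus the median was 66.3, and 45 of 76 loci were under 100 (59.2%). Levels did not fall steadily towards the ends, though equal distances at 2 ends need not be equal positions in the shared sequence. The median over loci was 39.3 reads per kilobase in the outermost 10 kb, 56.4 from 10 to 20 kb, 135.7 from 20 to 30 kb, 51.5 from 30 to 40 kb and 78.7 from 40 to 50 kb. Within this background a few genes stood out. SPAC750.01, an aldo/keto reductase family gene 22365 bases from the right end of chromosome I, had 3616 reads per kilobase, the highest of the loci at the 4 ends. The phospholipase copies plb4 and SPBC1348.10c had 1849 and 1912 reads per kilobase, SPBPB2B2.19c 1693, ftm5 1493, ftm4 1184 and ftm1 1107. The same reads may be counted at several copies, so these are not levels of single genes. The contig gene SPBC460.02c had 10092 reads per kilobase, the highest level of all 85. At the low end, SPAC186.07c, a hydroxyacid dehydrogenase gene, had 1.76 reads per kilobase.

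**Figure D1:**
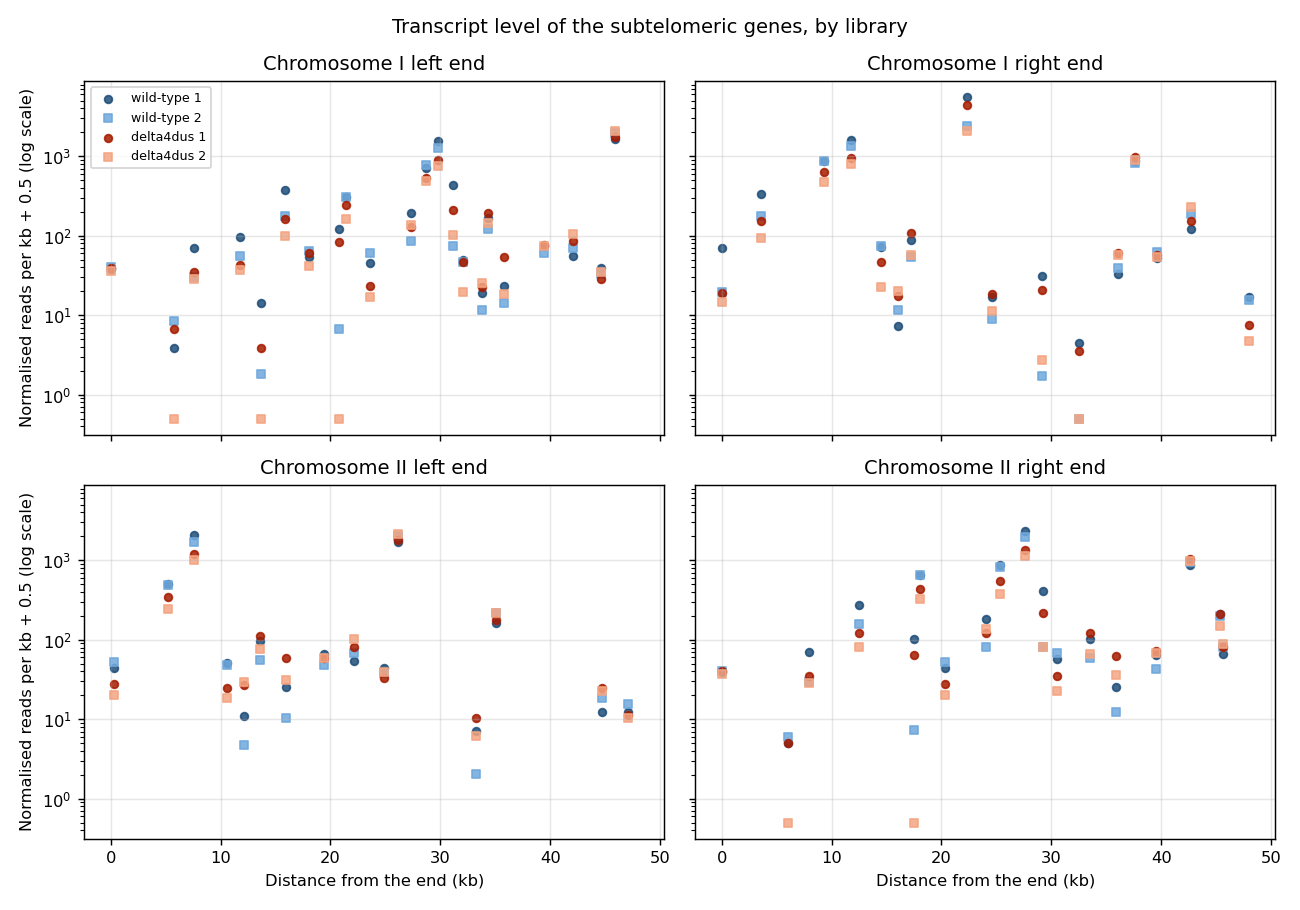
Transcript level of each locus (vertical axis, normalised reads per kilobase plus 0.5, log scale) against its distance from the chromosome end in kb (horizontal axis), 1 panel per end and 1 point per library. Most points lie under 100 reads per kilobase, and the highest locus at the 4 ends is SPAC750.01 at 3616.

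No subtelomeric gene passed the test of the whole table. Of the 85 rows, 77 (71 of 76 loci) had enough reads to be tested, and edgeR's quasi-likelihood test called 0 of them at an adjusted p under 0.05, against 5 of 6813 genes tested (0.0734%). At an unadjusted p under 0.05, 18 of the 77 were lower in delta4dus (23.4%), beside 4.02% of all genes, and 4 were higher (5.19%), beside 3.55%. Copies count repeatedly here: the lower ones are 17 loci in 6 read families, and the higher ones 4 loci in 3 read families, out of 39 families tested. Of the 4999 other coding genes tested, 4.86% were lower and 2.42% higher at the same unadjusted p. DESeq2 called 6 of the subtelomeric genes, all lower. Of all 6482 genes it gave an adjusted p, it called 24 lower (0.37%). The authors' deposited table also called 6 subtelomeric genes, all lower. Of its 6842 genes with an adjusted p, it called 23 lower (0.336%). The 6 genes were the same in both: ftm1, ftm4, ftm5, SPBPB2B2.19c, SPBCPT2R1.04c and SPBCPT2R1.01c, which come from only 2 read families. In bulk RNA a lower level in every cell and fewer cells with the transcript cannot be told apart.

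The tested rows spread more widely between genotypes than other genes, above all the rows that share reads with another row. In absolute log2 fold change the median was 0.61 over the 77 tested rows and 0.09 over all 6813 genes, and 45 of 77 differed by more than 0.5 in log2, compared with 482 of 6813. It was 0.66 over the 59 rows that share reads, 41 of them past 0.5, so copies count repeatedly. Over the 18 with no sharing found it was 0.19, with 4 past 0.5. The libraries of 1 genotype also differed more: the median absolute log2 difference between them was 0.45 in wild-type and 0.43 in delta4dus, against 0.11 in each over all genes. In 25 of the 77 rows both delta4dus libraries were below both wild-type libraries (32.5%), beside 19.7% of all genes. In 12 rows both were above (15.6%), beside 19% of all genes. Over the other coding genes tested these shares were 23.7% below and 16.0% above. Copies count repeatedly here too. The rows below are 24 loci in 8 read families, and the rows above 12 loci in 9 read families, out of 39 families tested. The median log2 fold change of the 77 rows was −0.20, with 30 above and 47 below 0, and the median over all genes was 0.00. It was −0.47 without the first delta4dus library, −0.40 without the second wild-type library, −0.02 without the first wild-type library and −0.12 without the second delta4dus library. The 59 tested rows that share reads with another row had a median of −0.54, and for 1 of them, SPBC1348.11.1, that row is the other row of its own locus. The 18 with no sharing found had a median of 0.08, and that number includes the 5 contig genes, for which sharing could not be computed.

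By chromosome end, the values describe sets that share copies and so reads, and differences between ends were not tested. The median log2 fold change over table rows was −0.52 at the left end of chromosome I, −0.36 at its right end, 0.06 at the left end of chromosome II, −0.66 at its right end and 0.05 on the contig. By distance, the 10 tested loci of the outermost 10 kb were all below 0, with a median of −0.70. Copies that share reads are among these 10, including tlh1 and tlh2 at −0.05 and −0.03. From 10 to 20 kb 9 of 14 were below 0 (median −0.71), and from 20 to 30 kb 14 of 17 (median −0.52). From 30 to 40 kb 4 of 15 were below 0 (median 0.21), and from 40 to 50 kb 4 of 10 (median 0.09). Taken at 30 kb, a boundary chosen after these values were seen, 33 of the 41 tested loci nearer the end were below 0, with a median of −0.65, and 8 of the 25 farther loci, with a median of 0.16. With 1 value per read family the nearer set had 14 of 21 families below 0 and a median of −0.20. The nearer set depended on single libraries. Without the first wild-type library 25 of 42 loci were below 0 (median −0.14), and 9 of 21 families (median 0.31). Without the second delta4dus library 29 of 42 loci were below 0 (median −0.46), and 11 of 22 families (median −0.02). The family median was −0.66 without the first delta4dus library and −0.62 without the second wild-type library. Copies of 1 family can lie at different distances, as plb4 at 45874 bases and SPBC1348.10c at 26154 bases from their ends. Shared reads therefore also link the nearer and the farther set. At the left end of chromosome I SPAC212.01c lay at 28737 bases and SPAC212.03 at 23588. Their copies at the left end of chromosome II, SPBC1348.01 and SPBC1348.15, lay at 5223 and 303. Equal distances at 2 ends need not be equal positions in the shared sequence, and the distance sets mix such positions.

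**Figure D2:**
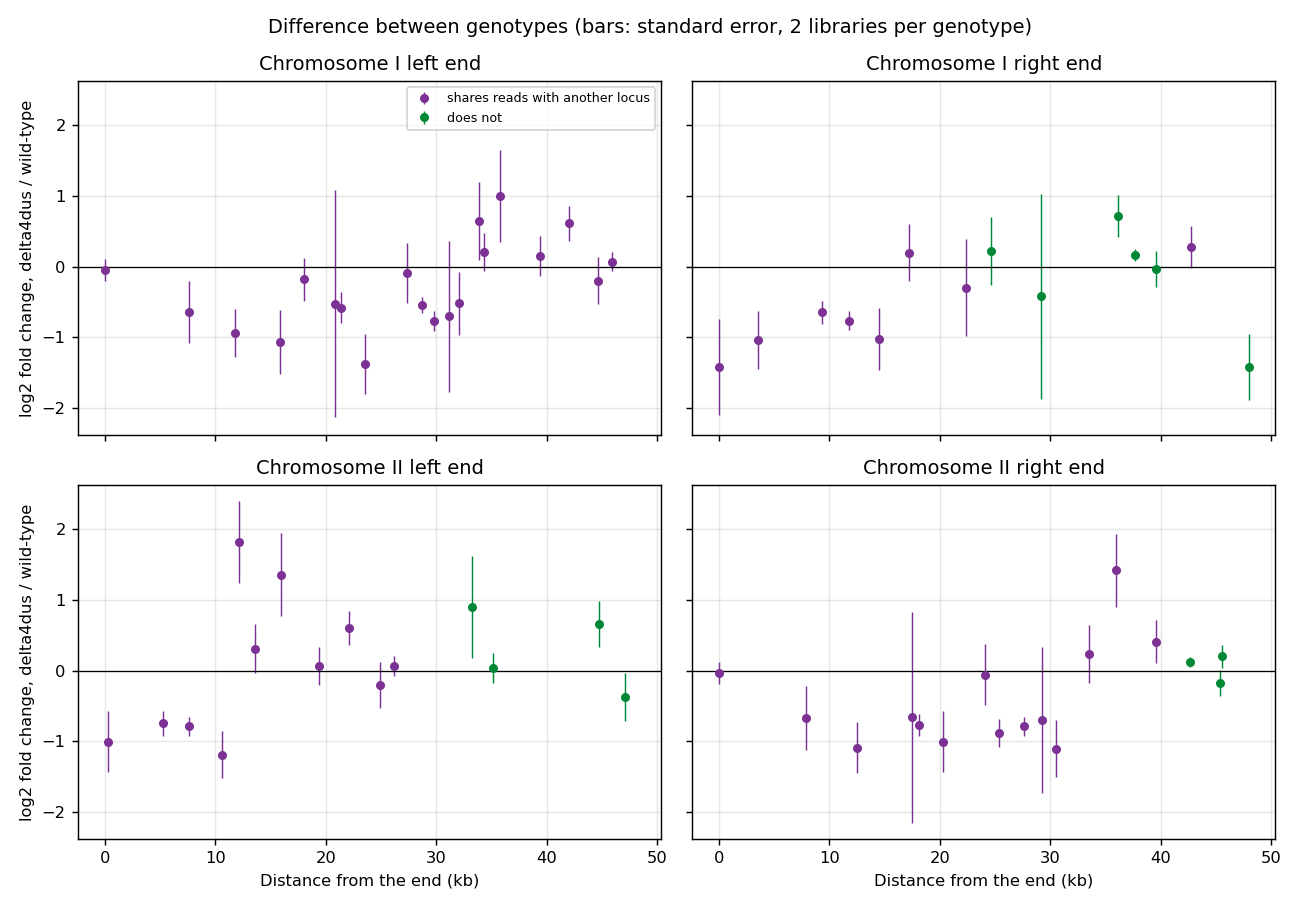
Log2 fold change of each tested locus, delta4dus over wild-type (vertical axis, points with standard error, 2 libraries per genotype), against its distance from the chromosome end in kb (horizontal axis), 1 panel per end. All 10 tested loci of the outermost 10 kb lie below 0, and purple points share reads with another locus. The 10 loci include copies, such as tlh1 and tlh2 at −0.05 and −0.03, so they are not 10 separate measurements.

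The ftm1, ftm4, ftm5 and SPBPB2B2.19c family had the clearest lower values. Normalised counts for ftm5, 7632 bases from the left end of chromosome II, were 3766 and 3138 in wild-type against 2177 and 1816 in delta4dus. Both delta4dus libraries lay below both wild-type libraries, with means of 3452 ± 444 and 1996 ± 255 (SD, n = 2). The log2 fold change was −0.79 with a standard error of 0.13, and the adjusted p was 0.484 in edgeR, 0.000214 in DESeq2 and 0.000102 in the authors' deposited table. ftm4, near the right end of chromosome I, had 2362 and 1984 in wild-type against 1396 and 1160 in delta4dus, with a log2 fold change of −0.76. ftm1, near the left end of chromosome I, had 2007 and 1640 in wild-type against 1160 and 977 in delta4dus, with a log2 fold change of −0.77. As the coding sequences are nearly the same, these 4 genes give in effect 1 measurement. Leaving out any single library kept the value of each of the 4 between −0.93 and −0.62. The smaller ftm2, ftm3, ftm6 and ftm7 are another family of the same annotation, 441 bases long and at least 99.55% identical. Their log2 fold changes ran from −1.19 to −0.52. ftm6 had 39.3 and 37.3 in wild-type against 18.8 and 14.2 in delta4dus, with an adjusted p of 0.626 in edgeR.

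The family of uncharacterised genes with the 33-base difference was the second with lower values, and its 6 loci include SPAC212.04c, which shares part of its length. SPBCPT2R1.04c had 875 and 899 in wild-type against 595 and 445 in delta4dus. All 4 libraries were apart by genotype, and the log2 fold change was −0.77 with a standard error of 0.15 (adjusted p 0.499 in edgeR, 0.0145 in DESeq2 and 0.0144 in the authors' deposited table). SPBCPT2R1.01c had 849 and 803 in wild-type against 530 and 363 in delta4dus, with a log2 fold change of −0.88 with an adjusted p of 0.545 in edgeR and 0.0206 in DESeq2. Of the copies called neither by edgeR with genotype as the only term, nor by DESeq2, nor in the authors' deposited table, SPBC1348.01 had a log2 fold change of −0.74, SPAC750.06c −0.65 and SPAC212.01c −0.54. Their genotypes did not overlap either. Copies with the 33 bases gave −0.54, −0.65 and −0.77, and copies without them −0.74 and −0.88, ranges that overlap.

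Other families near the ends held few reads. SPAC212.08c and SPAC212.12, annotated as GPI-anchored proteins, SPAC750.07c, which has the same 372-base coding sequence as SPAC212.12, and the pseudogene SPBCPT2R1.06c form 1 family. SPAC212.12 had 140 and 66.2 in wild-type against 60.2 and 37.2 in delta4dus. The log2 fold changes of the 4 ran from −1.09 to −0.94. SPAC212.03, SPBC1348.15 and SPBCPT2R1.03, uncharacterised genes, had values from −1.378 to −1.004 at 7.66 to 27.7 normalised counts. The family with the NAD-dependent malic enzyme gene SPAC750.08c and the pseudogenes SPAC212.09c and SPBCPT2R1.07c ran from −1.42 to −0.64. SPAC750.08c, the gene nearest the right end of chromosome I, had 47.4 in the first wild-type library and 9.85 to 13.2 in the other 3. No gene in these families passed an adjusted p of 0.05 in edgeR with genotype as the only term, in DESeq2 or in the authors' deposited table. SPAC186.02c, a hydroxyacid dehydrogenase gene 47989 bases from the right end of chromosome I that shares no reads, had 21.2 and 19.3 in wild-type against 9.04 and 5.47 in delta4dus. Its log2 fold change was −1.42 (adjusted p 0.626 in edgeR).

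On the other side of 0 were a few weakly expressed families. The Vel1p domain genes had normalised counts of 6.02 to 15.1 in wild-type and 10.9 to 38.4 in delta4dus. SPBPB2B2.15 had 15.1 and 7.22 in wild-type against 38.4 and 21.9 in delta4dus, with a log2 fold change of 1.42 with a standard error of 0.52 (adjusted p 0.636 in edgeR). SPBC1348.06c gave 1.36 and SPAC977.05c 0.995. The libraries of SPAC977.05c overlapped between genotypes. The glycoprotein genes pfl6 and SPBC1348.08c had log2 fold changes of 0.61 and 0.61. pfl6 had 68.6 and 86.6 in wild-type against 106 and 131 in delta4dus (adjusted p 0.659 in edgeR). The methyltransferase gene SPBC1348.04 had 6.05 and 2.41 in wild-type against 15.1 and 16.4 in delta4dus, the highest log2 fold change of the tested subtelomeric rows at 1.82 (adjusted p 0.626 in edgeR). Its copy SPAC977.03, 99.77% identical, had 8.07 and 4.81 in wild-type against 9.79 and 10.9 in delta4dus, with a log2 fold change of 0.64. Transporter genes numbered 4, all tested, and all were above 0 with a median of 0.27. The genotypes did not overlap in 1 of them, and in 3 both libraries numbered 1 were above both numbered 2. Among the 4 are SPAC750.02c, SPBC1348.05 and SPBPB2B2.16c, which are at least 99.93% identical and had 0.20, 0.31 and 0.24. They belong to 1 read family and give in effect 1 measurement. None of the subtelomeric genes above 0 passed an adjusted p of 0.05 in edgeR with genotype as the only term, in DESeq2 or in the authors' deposited table.

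The silencing reporters did not move detectably. tlh1 lies at the left end of chromosome I and had 213 and 224 in wild-type against 218 and 204 in delta4dus. Its log2 fold change was −0.05, with a 95% interval from −0.44 to 0.34. tlh2, at the right end of chromosome II, had 231 and 238 in wild-type against 241 and 218 in delta4dus, with a log2 fold change of −0.03 with an interval from −0.42 to 0.36. The libraries of the genotypes overlapped for both. The 2 genes are 99.98% identical over 5662 bases, so they also count as 1 measurement.

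The galactose genes at the right end of chromosome II were near 0. gal1, which encodes galactokinase, had 1726 and 1872 in wild-type against 2017 and 1886 in delta4dus, with a log2 fold change of 0.12 with a 95% interval from −0.06 to 0.30. gal10, which encodes UDP-glucose 4-epimerase, had 738 and 698 in wild-type against 745 and 521 in delta4dus, with a log2 fold change of −0.18 with an interval from −0.65 to 0.29. tgd1, annotated as a nucleotide-sugar dehydratase, lies on the opposite strand and overlaps gal10 over 3291 of its 3547 bases, so the reads of the pair are separated only as far as the counting kept strand. tgd1 had 242 and 290 in wild-type against 292 and 322 in delta4dus. gal7, the next gene inwards and not among the 85, had a log2 fold change of −0.06. The gdt1 gene, annotated as GDT1-like, had 1281 and 1197 in wild-type against 1461 and 1307 in delta4dus. plb4 had 4014 and 4869 in wild-type against 4245 and 5070 in delta4dus, with a log2 fold change of 0.07 with an interval from −0.31 to 0.44.

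**Figure D3:**
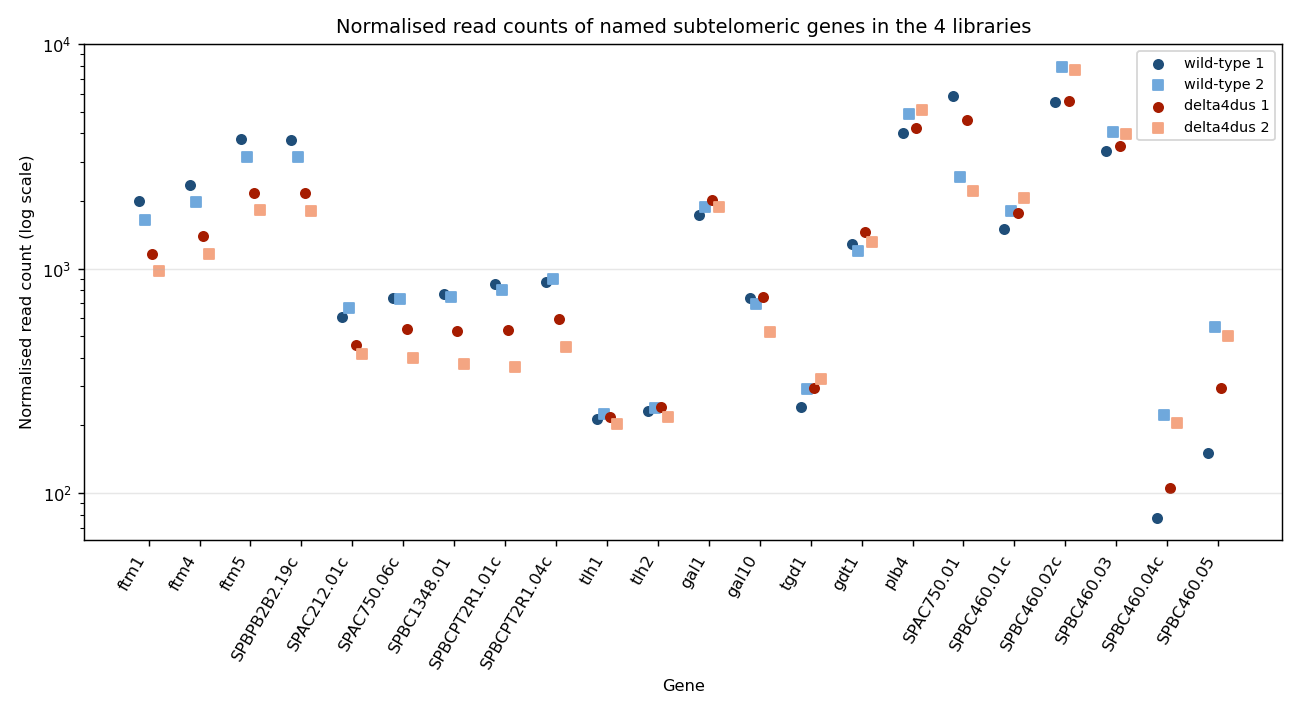
Normalised read counts (vertical axis, log scale) of 22 subtelomeric genes (horizontal axis) in the 4 libraries, circles for libraries numbered 1 and squares for libraries numbered 2. The ftm1 to SPBPB2B2.19c and SPAC212.01c to SPBCPT2R1.04c points split by genotype, while SPAC750.01 and SPBC460.05 split by replicate number.

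Some genes differed more between replicate numbers than between genotypes. SPAC750.01 had 5849 and 2548 in wild-type against 4615 and 2216 in delta4dus. Both libraries numbered 1 were above both numbered 2. Its log2 fold change of −0.30 had a standard error of 0.69. SPAC977.18, an uncharacterised gene, had 328 and 55.3 in wild-type against 159 and 75.5 in delta4dus. SPAC186.08c, an L-lactate dehydrogenase gene, had 30.3 and 1.20 in wild-type against 20.3 and 2.189 in delta4dus. The contig genes went the other way: all 5 were lower in both libraries numbered 1. SPBC460.05 had 150 and 550 in wild-type against 293 and 500 in delta4dus, and SPBC460.02c had 5536 and 7952 in wild-type against 5588 and 7688 in delta4dus. Their log2 fold changes between genotypes ran from −0.02 to 0.21. grt1, which encodes a transcription factor and runs past the 50000-base limit at the left end of chromosome II, had 197 and 573 in wild-type against 307 and 470 in delta4dus, the same order of libraries as SPBC460.05. Both libraries numbered 1 were above both numbered 2 in 22 of the 77 tested rows (28.6%) and below in 9 (11.7%), compared with 23.0% and 22.6% of all genes. With 1 row per locus these were 17 of 71 (23.9%) and 9 (12.7%), so the share above was near that of all genes. The 5 contig genes are among the 9, and copies still count repeatedly.

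The next genes inwards on chromosome I were nhe1, a sodium ion and proton antiporter gene, with a log2 fold change of −0.07 at the left end, and pfl9, a DIPSY family glycoprotein gene, with −0.63 at the right end. pfl9 had 263 and 229 in wild-type against 178 and 139 in delta4dus (adjusted p 0.626 in edgeR). Of 29 listed heterochromatin and silencing factors 28 were found in the annotation. They had log2 fold changes from −0.20 to 0.18, 16 above and 12 below 0, and none passed the adjusted threshold. Swi6 binds the methylated histone, and swi6 had 3401 and 3315 in wild-type against 2995 and 2840 in delta4dus (log2 fold change −0.20, adjusted p 0.626 in edgeR), its genotypes not overlapping. cid12, which encodes part of the RNA-directed RNA polymerase complex, had 0.18. Of 20 listed telomere and shelterin factors all were found, with 10 above and 10 below 0, none past the adjusted threshold, and values from −0.29 to 0.41. tel1, the checkpoint kinase gene, had a log2 fold change of 0.22.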

How the data were processed

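The series has 2 libraries of each genotype. The authors deposited raw read counts per gene; the submitters' processing notes name Trimmomatic 0.36, TopHat2, featureCounts, DESeq2 and the build ASM294v2, while the sources used here do not give the options for strand and for multiply mapped reads. The authors' deposited table holds a mean normalised signal, log2 fold changes, their standard errors, a test score, p-values and adjusted p-values.

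Here, genes were filtered with filterByExpr (minimum count 10, minimum total 15), scaled by TMM (factors 1.23 and 1.13 in wild-type, 1.09 and 0.662 in delta4dus) and fitted with edgeR 4.0.16 in R 4.3.3 by robust quasi-likelihood, two-sided, Benjamini-Hochberg adjusted over all 6813 genes tested. DESeq2 1.42.0 was an alternative. Ratios between libraries of 1 genotype used 0.5 added to normalised counts. Names and products came from RefSeq ASM294v3, matched by systematic identifier; of 6844 genes compared, 99.30% share a start or end with the deposited coordinates. Coding sequences were compared with BLAST+ 2.17.0 and aligned with MAFFT 7.526; no protein table was used, so coding nucleotide identity stood in for the planned protein identity. The last gene end in the table is 6905 bases short of the reference end on chromosome II, so distances there run from that gene. The fit was tested on simulated counts. Reads carry no molecular identifiers.

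The genes, lists and tests were chosen with earlier results of these data known. Named genes were those past the threshold in any tool, the 8 per direction with the smallest p at a mean of at least 1 CPM, the 3 highest per end, those nearest to and farthest from each end with the next gene inwards, the helicase and galactose genes, copies, and up to 4 factors per list. Genes named in other sentences were chosen after their values were seen.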

Additional observations from a re-analysis of the deposited data

How the results depend on the processing

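The subtelomeric genes were called in 0 cases by edgeR under TMM or RLE scaling, library totals, no filter, a 1 CPM filter, ribosomal RNA genes left out, other windows and each library left out. DESeq2 called 52 genes in all and 6 subtelomeric genes, and without independent filtering 51 and 6. The number of genes called ran from 3 to 5 over the fits that each left out 1 library. Replicate numbers are shared by the genotypes, but the labels do not say that they pair the libraries. A fit with the replicate number as a block called 825 genes, 432 higher and 393 lower, and 23 subtelomeric rows, 5 higher and 18 lower. The lower ones include SPBC1348.01, SPAC750.06c, SPAC212.01c, SPAC212.04c, SPAC212.08c, SPAC212.12, SPAC750.07c, SPBCPT2R1.06c, SPAC750.08c, ftm6 and SPAC750.01, which no other fit called. The 5 higher ones were pfl6, SPBC1348.08c, SPBC1348.06c, SPBPB2B2.15 and SPBC460.01c, and no other fit called them either. Deviations of same-numbered libraries from their genotype means correlated at 0.623 over 6813 genes and 0.817 over the 77 tested rows, a hint from the data and not from the design.

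Scaling by library totals alone moved the median of all genes to −0.42, of the subtelomeric genes to −0.62 and of those within 30 kb to −1.02. The subtelomeric median was −0.53 with the 1 CPM filter (19 rows), −0.61 with a window of 30 kb and 0.082 without rows that share reads. Over fits that left out 1 library it ran from −0.47 to −0.024, and over table rows within 30 kb from −0.93 to −0.071. The cause was not tested.

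Under library totals these genes fell below 0: plb4 −0.38, SPBC1348.10c −0.38, gdt1 −0.25, gal1 −0.29, SPBC460.01c −0.24, SPBC460.03 −0.42 and SPBC460.05 −0.30. Leaving out 1 library gave values on both sides of 0: plb4 −0.065 to 0.21, SPBC1348.10c −0.070 to 0.21, SPAC750.01 −0.93 to 0.42, tlh2 −0.11 to 0.040, gal10 −0.47 to 0.054, SPBC460.02c −0.27 to 0.26, SPBC460.03 −0.12 to 0.17 and SPBC460.05 −0.48 to 1.39. Values under the alternatives were counted for 20 of the named genes. Copies and genes nearest to or farthest from an end were counted only where also named for another reason. Of these values, 194 kept direction and side of the threshold, 22 crossed it with the same sign and 21 changed sign.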
